A study of Homo sapiens with 9 samples.

Results

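The genes described here are 10 targets and feedback regulators of the transcription factor STAT5: CISH, SOCS1, SOCS2, SOCS3, PIM1, PIM2, OSM, ID1, BCL6 and CCND2. They are 10 of the 18239 genes measured. Each was read from the probe set annotated with that gene symbol alone that had the highest mean over the 9 arrays. By their names, the chosen probe sets of CISH, ID1, BCL6 and CCND2 are of types that may share probes with other transcripts. The arrays came from K562, a human erythroleukaemia cell line established from a chronic myeloid leukaemia in blast crisis. All cells were transduced with a retrovirus carrying calreticulin (CALR), an endoplasmic reticulum chaperone that is mutated in myeloproliferative neoplasms, and were purified on a surface marker by magnetic selection. There were 3 groups of 3 arrays: cells given the Del52 form, the Ins5 form, or wild-type CALR. K562 cells keep their own CALR genes in all groups, the wild-type group is itself transduced, and no untransduced or empty-vector array was analysed here.

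Cytokine receptors activate JAK kinases, which phosphorylate STAT5. The factor then dimerises, enters the nucleus and binds paired TTC and GAA letters in the promoters of its targets. CISH and the SOCS proteins are made in response and restrain the same receptors, PIM kinases and CCND2 serve survival and the cell cycle, and BCL6 is a repressor that STAT5 holds down in many blood cells. K562 carries the BCR-ABL fusion kinase in every group, a kinase known to keep STAT5 active without a cytokine.

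The promoters of CISH and BCL6 are shown because they were the members whose searched windows held such sites, and CISH also had the smallest p of the members between the mutant forms. The motif TTCNNNGAA reads the same on both strands. It was searched in RefSeq promoter windows of 300 bases, 250 before to 50 after each start, on GRCh38.p14. The motif was found in 2689 of 35116 windows (7.66%), and 7 windows (0.0199%) held 4 or more sites. Windows were matched for 7 of the 10 members, 9 windows in all. The motif lay in 2 of these, 1 of CISH and 1 of BCL6, with 4 sites each. The CISH sequence covers the 250 bases before the start, chr3:50611775-50612024 on the minus strand. The BCL6 sequence is chr3:187745465-187745718, also minus, and stops at the end of the site that lies over the start, with 2 further sites after it. Capitals mark the motif, and a match is a description of the letters, not of binding.
CISH: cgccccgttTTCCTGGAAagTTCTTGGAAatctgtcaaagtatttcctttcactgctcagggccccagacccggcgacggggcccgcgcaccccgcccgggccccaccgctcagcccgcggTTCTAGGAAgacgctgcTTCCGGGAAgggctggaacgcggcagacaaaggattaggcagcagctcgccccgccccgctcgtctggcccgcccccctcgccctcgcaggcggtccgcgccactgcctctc
BCL6: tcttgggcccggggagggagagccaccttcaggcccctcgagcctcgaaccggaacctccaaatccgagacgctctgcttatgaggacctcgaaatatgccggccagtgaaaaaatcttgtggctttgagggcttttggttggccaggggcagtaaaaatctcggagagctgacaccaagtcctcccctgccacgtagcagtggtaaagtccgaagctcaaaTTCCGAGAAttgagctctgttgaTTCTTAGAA
Counted from the start, the CISH sites begin at -241, -230, -129 and -112. The BCL6 sites sit closer to the start, the first of them at -28.

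Values are RMA log2 expression per probe set. Array medians lay between 3.73 and 3.76, and with no read depth on arrays it is their number that limits precision. The 23 antigenomic control probe sets, which match no human sequence, spanned 1.53 to 6.52, although 22 of them stayed at or below 4.29. Among the K562 erythroid markers, 11 of the 12 measured lay above all these controls and their mean was 8.77 to 9.04 over the arrays. Lymphoid markers had 0 of 5 above the controls in every array. CD3D (mean 6.26) exceeded them in Ins5 replicates 1 and 3 and wild-type replicate 2. Monocyte and granulocyte markers had 1 of 6 (LYZ, mean 9.65), and fibroblast and epithelial markers had 3 of 6 (EPCAM, KRT8 and KRT19). The level of CALR was read without regard to the introduced form. On its brightest probe set, where the groups overlapped, it averaged 7.42 ± 0.18 (SD, n = 3) with Del52, 7.40 ± 0.12 with Ins5 and 7.57 ± 0.24 with wild-type CALR. A second, dimmer CALR probe set, of the type that may share probes with other transcripts and within the control span, read 4.45, 4.31 and 4.36 with Del52, 4.17, 4.20 and 4.47 with Ins5 and 3.90, 4.01 and 3.68 with wild type. There the mutant arrays lay above the wild-type arrays, by 0.51 ± 0.11 (SE) for Del52 and 0.42 ± 0.11 for Ins5, with limma p of 0.00155 and 0.00484 and adjusted p of 0.603 and 0.53. The CALR probe sets thus differed in sign. NGFR, the surface marker used for the selection, averaged 3.42, 3.43 and 3.36, within the control span. Over all genes, limma with Benjamini-Hochberg adjustment called none at adjusted p under 0.05 in any comparison. The smallest adjusted p was 0.603 for Del52 against wild type, 0.373 for Ins5 against wild type and 0.841 for Del52 against Ins5.

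None of the 10 members passed the adjusted threshold in any comparison, where 0% of all genes did. Against wild type, CISH and SOCS2 were lower in every Del52 array and ID1 was higher in every Del52 and every Ins5 array. At an unadjusted p under 0.05, limma gave 2 members for Del52 against wild type (7.05% of all genes), 1 for Ins5 against wild type (7.41%) and 1 for Del52 against Ins5 (5.77%). For both mutants averaged against wild type it gave 1 (7.97%). Groups did not overlap, with the first group lower, for 2 members, CISH and SOCS2, in Del52 against wild type (4.36% of all genes), 0 in Ins5 against wild type (3.3%) and 2, CISH and ID1, in Del52 against Ins5 (6.28%). The first group was higher without overlap for 1 member, ID1, in each comparison with wild type (6.23% of all genes for Del52 and 8.16% for Ins5) and for 0 in Del52 against Ins5 (3.81%).

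**Figure D1:**
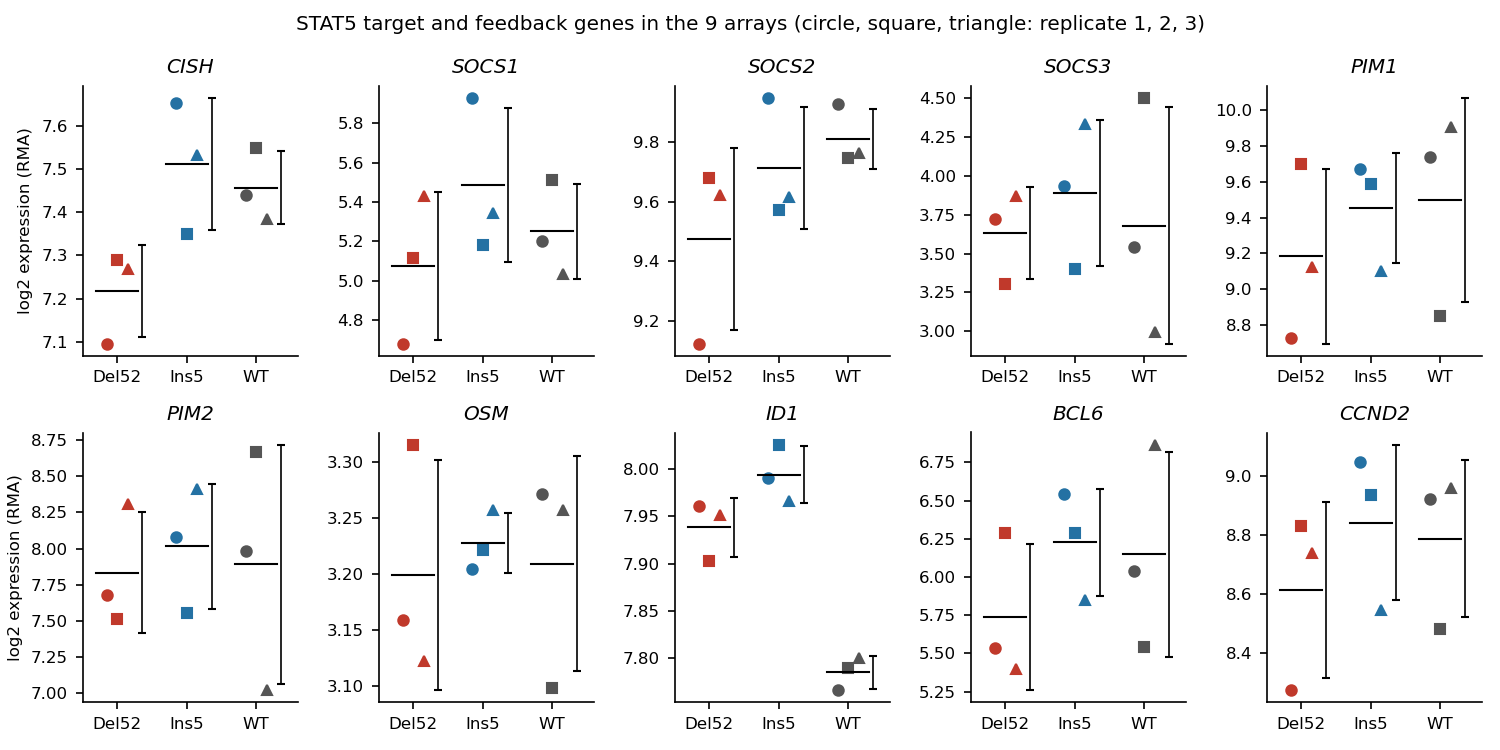
RMA log2 expression of each of the 10 members (vertical axes, 1 panel per gene with its own scale) in the Del52, Ins5 and wild-type arrays, with marker shapes for the replicate number, lines at group means and bars of ± 1 SD. ID1 has 3 narrow groups with wild type lowest, from 7.77 to 7.80, while PIM2 in the wild-type arrays spreads from 7.02 to 8.67.

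The first role is receptor feedback. CISH, an SH2 protein that binds activated cytokine receptors and blocks STAT5 docking, was measured at 7.10, 7.29 and 7.27 in the Del52 arrays, 7.65, 7.35 and 7.53 in the Ins5 arrays and 7.44, 7.55 and 7.38 in the wild-type arrays. Every Del52 array lay below every other array, and the Ins5 and wild-type arrays overlapped. The share of all genes with Del52 below both other groups was not computed. The group means were 7.22 ± 0.11 (SD, n = 3), 7.51 ± 0.15 and 7.46 ± 0.08. The log2 difference between Del52 and wild type was -0.24 ± 0.09 (SE; 95% interval -0.45 to -0.03), which is 0.847 of the wild-type level on the linear scale. Its limma p was 0.0299, and 0.655 after Benjamini-Hochberg adjustment. Against Ins5 the Del52 difference was -0.29 ± 0.09 (-0.50 to -0.08), with a limma p of 0.012 and an adjusted p of 0.841. This p ranked 237 of 18239 genes. Ins5 and wild type differed by 0.05 ± 0.09, with an interval of -0.15 to 0.26. CISH has only 1 probe set on the array.

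SOCS2, which acts on growth hormone and other cytokine receptors, was at 9.12, 9.68 and 9.62 with Del52, 9.95, 9.57 and 9.61 with Ins5 and 9.93, 9.75 and 9.76 with wild type. The Del52 arrays lay below the wild-type arrays, with Del52 replicate 1 far below its group, and the Ins5 arrays overlapped both. Del52 against wild type differed by -0.34 ± 0.16 (SE; -0.71 to 0.04), with a limma p of 0.0711 and an adjusted p of 0.743. Without Del52 replicate 1 the difference was -0.16. The second SOCS2 probe set gave -0.47 ± 0.20 with an unadjusted limma p of 0.0471, and it followed the first with r = 0.998 over the 9 arrays.

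SOCS1 inhibits JAK kinases directly through a pseudosubstrate stretch. Its probe set lay within the span of the antigenomic controls, so a low level cannot be told from background there. Every SOCS1 array did lie above the 22 control probe sets that stayed at or below 4.29. SOCS1 was measured at 4.68, 5.11 and 5.43 with Del52, 5.93, 5.18 and 5.34 with Ins5 and 5.20, 5.51 and 5.04 with wild type. All groups overlapped. The largest SOCS1 difference was -0.41 ± 0.25 for Del52 against Ins5 (limma p 0.138, adjusted 0.957).

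SOCS3, which restrains gp130 and related receptors, also lay within the control span. It was measured at 3.72, 3.30 and 3.87 with Del52, 3.94, 3.40 and 4.33 with Ins5 and 3.54, 4.50 and 3.00 with wild type. The wild-type group alone held both the highest and the lowest array. No SOCS3 difference exceeded its standard error, which was 0.39 in each pair of groups.

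The survival kinases spread widely within each group. PIM1, a serine/threonine kinase that is active as soon as it is made, was at 8.73, 9.70 and 9.12 with Del52, 9.67, 9.59 and 9.10 with Ins5 and 9.74, 8.85 and 9.91 with wild type. The groups overlapped, and wild-type replicate 2 lay well below the other wild-type arrays. Del52 against wild type was -0.32 ± 0.34 (SE; -1.10 to 0.46), with a limma adjusted p of 0.936. Leaving out 1 array moved this PIM1 difference from -0.64 without wild-type replicate 2 to -0.09 without Del52 replicate 1. It was -0.57 without Del52 replicate 2, and -0.20 and -0.11 without wild-type replicates 1 and 3. The other PIM1 probe sets gave -0.34, -0.34 and -0.32 for the same comparison.

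PIM2, a kinase of the same family, was at 7.67, 7.51 and 8.31 with Del52, 8.08, 7.55 and 8.41 with Ins5 and 7.98, 8.67 and 7.02 with wild type. Here wild-type replicate 2 was the highest array of all and wild-type replicate 3 the lowest, whereas wild-type replicate 3 was the highest array for PIM1. The PIM2 differences from wild type were -0.06 ± 0.43 for Del52 and 0.13 ± 0.43 for Ins5, with intervals reaching about 1 log2 unit on either side (-1.04 to 0.93 and -0.86 to 1.11). These intervals leave a difference of up to that size undetected with 3 arrays per group.

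OSM encodes oncostatin M, a cytokine of the interleukin-6 family and a direct STAT5 target in blood cells. Its values stayed between 3.10 and 3.32 over the 9 arrays, within the control span. Group means were 3.20 ± 0.10 (SD, n = 3), 3.23 ± 0.03 and 3.21 ± 0.10 for Del52, Ins5 and wild type. OSM was thus not measured above background in any group.

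Among the regulators of transcription, ID1 encodes a helix-loop-helix protein that ties up basic helix-loop-helix factors and holds back differentiation. ID1 was measured at 7.96, 7.90 and 7.95 with Del52, 7.99, 8.03 and 7.97 with Ins5 and 7.77, 7.79 and 7.80 with wild type. The 3 groups did not overlap at all, with Ins5 highest and wild type lowest. How many of all genes had 3 separate groups was not computed. Del52 exceeded wild type by 0.15 ± 0.04 (SE; 0.07 to 0.24), a linear ratio of 1.112, with a limma p of 0.00387 and an adjusted p of 0.603. Ins5 exceeded wild type by 0.21 ± 0.04 (0.12 to 0.30), a linear ratio of 1.155, with a limma p of 0.00061 and an adjusted p of 0.466. The mean of both mutants lay 0.18 ± 0.03 above wild type (0.10 to 0.26, limma p 0.000607, adjusted 0.467), and the groups again did not overlap, as for 2.76% of all genes on the higher side. On the lower side there were 0 members and 1.26% of all genes. Del52 and Ins5 differed by -0.06 ± 0.04, with a limma p of 0.18 and an adjusted p of 0.986. In rank of p, ID1 stood 14 of 18239 for Ins5 against wild type and 105 for Del52 against wild type.

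ID1 varied little within each construct. Its SD between arrays of 1 construct was 0.027, below that of all but 2.68% of genes, and 94.1% of its variance lay between constructs, against a median of 21.3% over all genes. The other ID1 probe sets gave like differences with a wider spread. The second read 7.40, 7.36 and 7.33 with Del52, 7.49, 7.30 and 7.40 with Ins5 and 7.01, 7.24 and 7.17 with wild type. It put Del52 0.22 ± 0.07 and Ins5 0.25 ± 0.07 above wild type, with unadjusted limma p of 0.0152 and 0.00795. The third read 6.05, 5.94 and 6.00, then 6.07, 6.02 and 6.02, then 5.75, 5.92 and 5.86. It put Del52 0.15 ± 0.06 and Ins5 0.19 ± 0.06 above wild type, with unadjusted p of 0.0253 and 0.00904. In all 3 probe sets every mutant array was above every wild-type array, and Del52 and Ins5 overlapped in the second and in the third. The probe sets share the same RNA samples and are not independent. By its name the brightest is of the type that may share probes with other transcripts, and the others are not. The hybridisation spike-in controls, added to each sample after labelling, averaged 8.80 to 8.89 in the Del52 arrays, 8.81 to 8.83 in the Ins5 arrays and 8.72, 8.72 and 8.82 in the wild-type arrays. The part of this shift in the ID1 difference was not tested.

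**Figure D2:**
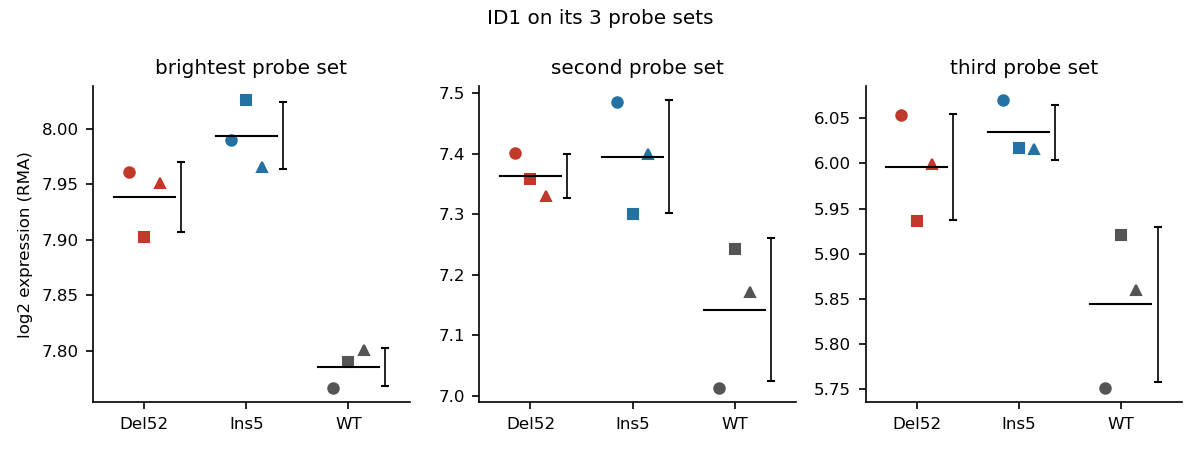
RMA log2 expression of ID1 on its 3 probe sets (vertical axes with their own scales) in the Del52, Ins5 and wild-type arrays, 1 point per array, with lines at group means and bars of ± 1 SD. In each panel all 6 mutant arrays lie above the 3 wild-type arrays, by group differences of 0.15 to 0.25.

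BCL6, a zinc-finger repressor of differentiation and damage-response genes, was at 5.53, 6.29 and 5.40 with Del52, 6.54, 6.29 and 5.85 with Ins5 and 6.04, 5.54 and 6.87 with wild type. The groups overlapped, and only Ins5 replicate 1 and wild-type replicate 3 exceeded all antigenomic controls. Del52 against wild type was -0.41 ± 0.37 (SE; -1.27 to 0.45), with a limma adjusted p of 0.912. Leaving out 1 array moved this BCL6 difference from -0.71 without wild-type replicate 2 to -0.05 without wild-type replicate 3, and it was -0.68 and -0.24 without Del52 replicates 2 and 3. Against Ins5 it was -0.49 ± 0.37 (-1.35 to 0.37), with an unadjusted limma p of 0.227. The direction of the Ins5 difference from wild type varied between probe sets: 0.08 on the brightest and -0.04, -0.03, 0.13 and 0.17 on the others.

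CCND2, which encodes cyclin D2 and drives entry into the cell cycle, was at 8.27, 8.83 and 8.74 with Del52, 9.05, 8.93 and 8.54 with Ins5 and 8.92, 8.48 and 8.96 with wild type. The groups overlapped, and the Del52 difference from wild type was -0.17 ± 0.20 (SE; limma adjusted p 0.948). It ran from -0.33 without wild-type replicate 2 to -0.0037 without Del52 replicate 1. On the dimmest CCND2 probe set this difference was 0.09 ± 0.08, of opposite sign.

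Side by side, 9 of the 10 members had a lower mean with Del52 than with wild type (45.4% of all genes), all but ID1. The median difference of the members was -0.18, and that of all genes 0.01. All 10 members had a lower mean with Del52 than with Ins5 (54.6% of all genes), with a median of -0.25 against -0.01 over all genes. Ins5 was higher than wild type in 8 of 10 (59.6% of all genes) and lower in 2 (40.4%), SOCS2 and PIM1, with a median of 0.07 against 0.02. Both mutants averaged were higher than wild type in 5 of 10 (57.9% of all genes) and lower in 5 (42.1%). These comparisons share arrays and their counts are not independent. The members are not independent of one another either, with r = 0.95 for SOCS3 and PIM2 and 0.93 for PIM1 and CCND2. The counts also include SOCS1, SOCS3 and OSM, whose levels lay within the control span. BCL6 is counted as well, though STAT5 holds it down in many blood cells. The counts therefore give the direction of RNA levels only and are not a measure of STAT5 output. Some of the Del52 differences from wild type were far inside their standard errors: -0.01 ± 0.07 (SE) for OSM, -0.05 ± 0.39 for SOCS3 and -0.06 ± 0.43 for PIM2. Del52 replicate 1 weighed heavily on the count for Del52 against wild type. Without it 6 of 10 members were lower than wild type (46.7% of all genes) and the median was -0.05. Against Ins5 all 10 stayed lower without it (55.8% of all genes), with a median of -0.09. Without Ins5 replicate 1 the median for Del52 against Ins5 was -0.16, and Ins5 was lower than wild type in 5 of 10 members. Ins5 was also lower in 5 of 10 without wild-type replicate 2. The 18S ribosomal control read 9.79, 9.43 and 9.38 in the Del52 arrays, above 9.20, 9.17 and 8.58 in the Ins5 arrays, with 8.86, 9.24 and 9.88 in the wild-type arrays. Its part in the differences between Del52 and Ins5 was not tested.

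**Figure D3:**
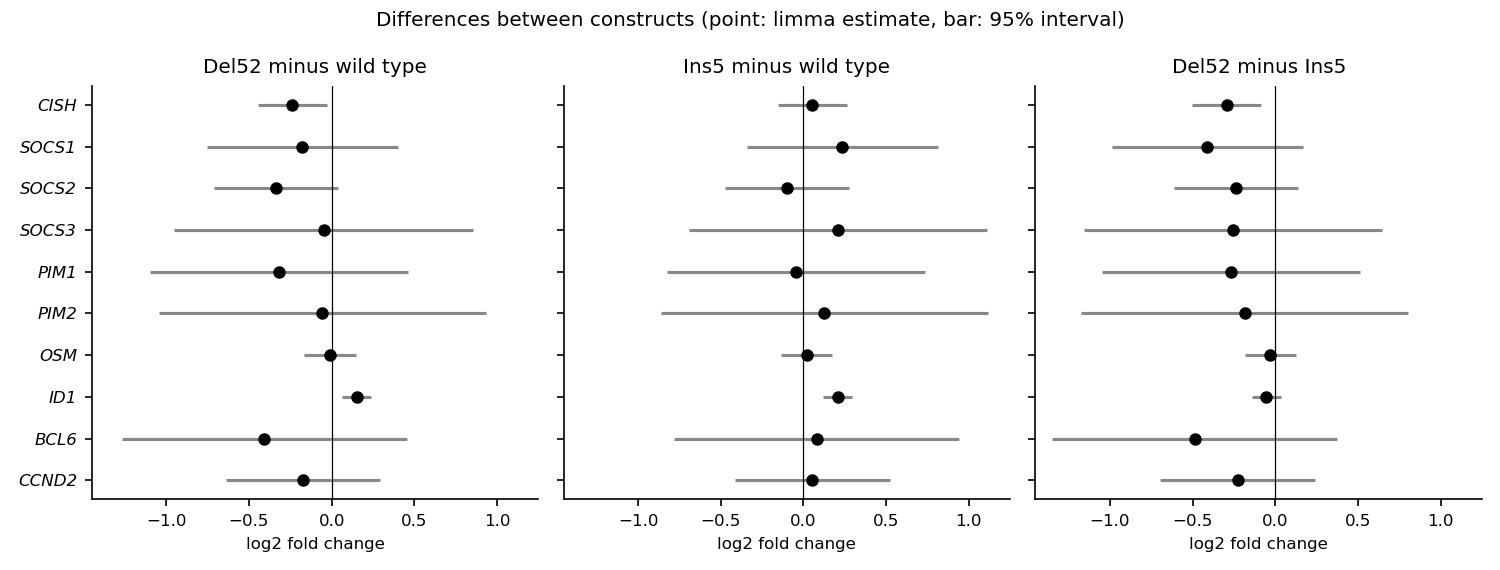
Log2 differences (horizontal axes) of the 10 members (rows) for the comparisons of Del52, Ins5 and wild type, with limma estimates as points and 95% intervals as bars. Intervals clear of 0 are those of ID1 in both comparisons with wild type and of CISH in both comparisons of Del52, and the PIM2 intervals span about 2 log2 units.

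Apart from ID1 and CISH, most of the variation of each of these genes lay between arrays of the same construct. The SD within constructs was above that of 90% of all genes for 5 members: PIM2 (0.593), SOCS3 (0.542), BCL6 (0.517), PIM1 (0.468) and SOCS1 (0.344). The median over all genes was 0.0977. Only 307 genes had a larger within-construct SD than PIM2. The construct took 2.47% of the variance of PIM2, 5.95% of that of SOCS3 and 11.7% of that of PIM1. For BCL6 it took 20.4% and for SOCS1 26.5%, against a median of 21.3% over all genes. It took 38.1% of that of SOCS2, which is not among these 5. CISH, by contrast, had a within-construct SD of 0.118 and 63.9% of its variance between constructs, and ID1 had 0.027 and 94.1%.

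**Figure D4:**
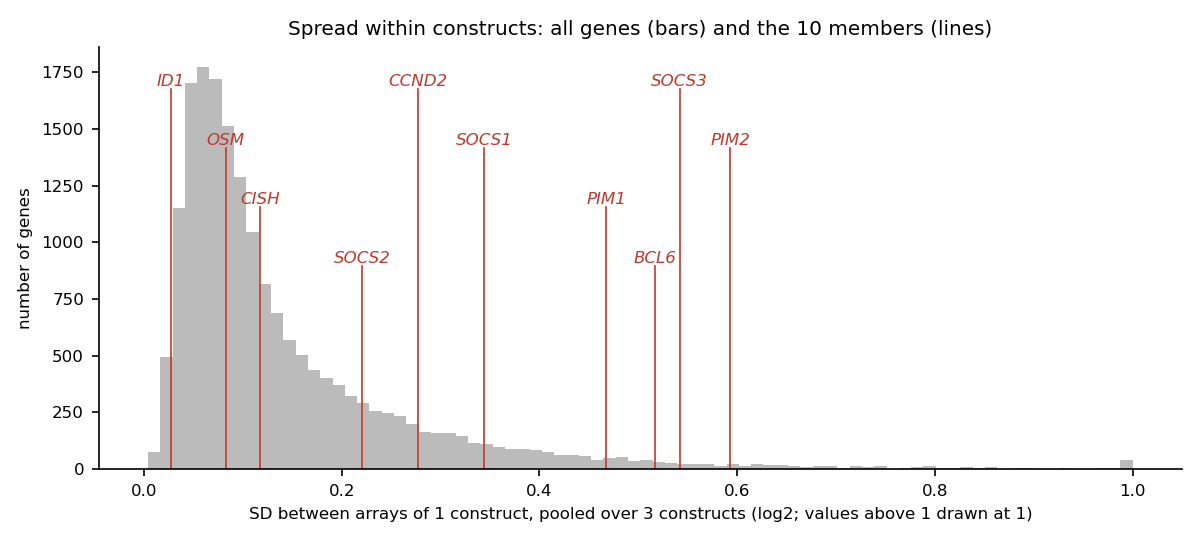
Histogram of the SD between arrays of 1 construct, pooled over the 3 constructs, on the log2 scale (horizontal axis) for all genes (vertical axis, number of genes), with the 10 members as lines. ID1 sits at 0.027, below the median of 0.0977, and PIM2 at 0.593, far in the upper tail.

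Of these 5 members, SOCS3, PIM2, BCL6 and PIM1 followed the main axis of variation of all genes and SOCS1 did not pass that test. The first principal component of all genes held 70.5% of the variance, and constructs took 13.4% of the total. Wild-type replicates 2 and 3 lay at its opposite ends, with scores of -0.57 and 0.57. Of 10 members tested against this score over the 9 arrays, 4 passed Benjamini-Hochberg adjustment in an exact two-sided permutation test of all 362880 orders. Correlations at least as strong as the weakest of these 4 were held by 24.8% of all genes, and nothing particular to the members is read from the count. SOCS3 had r = -0.94 (exact p 0.000231, adjusted 0.00175) and rho = -0.90 (exact p 0.00203, adjusted 0.0102), and r = -0.86 without the 2 wild-type arrays at the ends. PIM2 had r = -0.94 (exact p 0.00035, adjusted 0.00175) and rho = -0.93 (exact p 0.00075, adjusted 0.0075), and -0.84 without them.

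BCL6 and PIM1 ran the opposite way. BCL6 had r = 0.85 (exact p 0.00374, adjusted 0.0125) and rho = 0.82 (exact p 0.0108, adjusted 0.036), and r = 0.75 without the end arrays. PIM1 had r = 0.83 (exact p 0.00583, adjusted 0.0146) and rho = 0.78 (exact p 0.0172, adjusted 0.043), and 0.72 without them. OSM (r = 0.70, exact p 0.0375, adjusted 0.075) and CCND2 (r = 0.66, exact p 0.0531, adjusted 0.0885) did not pass. SOCS1 had r = -0.32 (exact p 0.405, adjusted 0.579), and ID1 had r = -0.01. The members are themselves among the genes that make up the component. The 3′ minus 5′ signal of beta-actin, a gauge of RNA integrity, ran from 1.08 in wild-type replicate 2 to 1.39 in wild-type replicate 1. It correlated with the component at r = 0.74 (exact permutation p 0.0219, n = 9), with rho = 0.60 (exact p 0.0968) and r = 0.65 without the end arrays. Its part in the spread of these members was not tested.

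**Figure D5:**
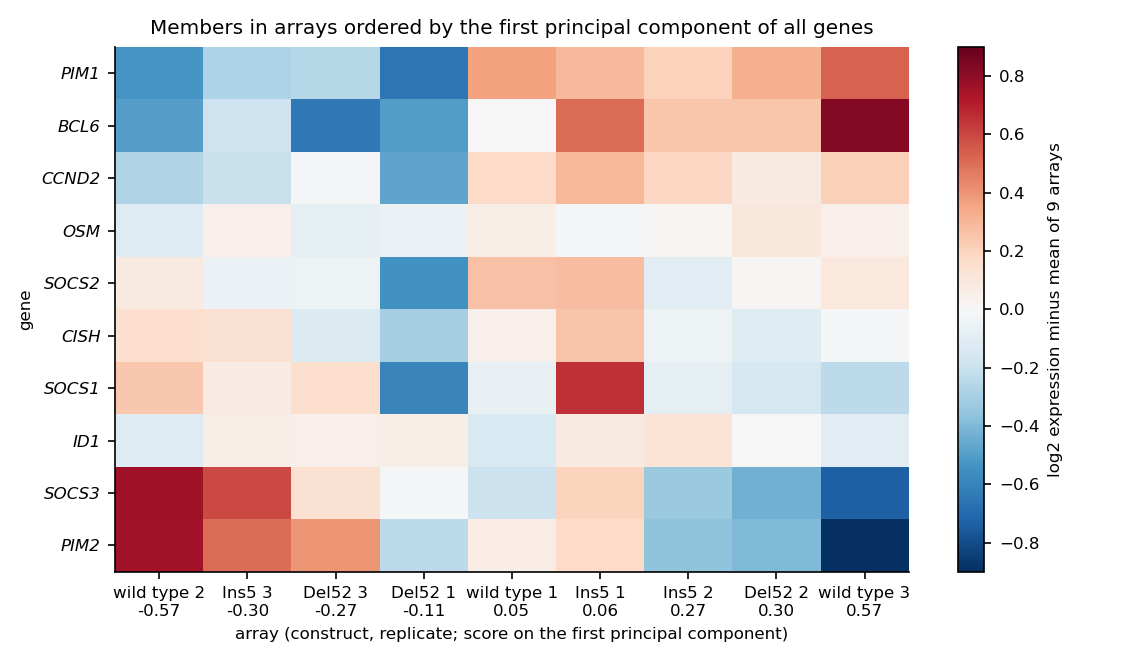
Log2 expression of each member minus its mean over the 9 arrays (colour) with genes as rows and arrays as columns, ordered by score on the first principal component of all genes. SOCS3 and PIM2 go from high at the score of -0.57 to low at 0.57, PIM1 and BCL6 the other way, and ID1 follows no such order.

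Among the 45 pairs of members, 3 passed adjustment for Pearson's r in the exact permutation test. The share of all gene pairs that would pass was not computed, and nothing particular to the members is read from the count. SOCS3, PIM2, PIM1 and BCL6 are in these pairs and also followed the first principal component of all genes. SOCS3 and PIM2 went together with r = 0.95 (exact p 0.000179, adjusted 0.00805) and rho = 0.97 (exact p 0.000165, adjusted 0.00743), and r = 0.88 without the 2 farthest arrays. PIM1 and CCND2 had r = 0.93 (exact p 0.000444, adjusted 0.00999), rho = 0.82 (exact p 0.0108, adjusted 0.155) and 0.83 without 2 arrays. PIM1 and BCL6 had r = 0.88 (exact p 0.00266, adjusted 0.0399), rho = 0.78 (exact p 0.0172, adjusted 0.155) and 0.85 without 2 arrays. PIM1 and PIM2, kinases of 1 family, had r = -0.61 (exact p 0.0835) and did not pass. The feedback genes CISH and SOCS1 had r = 0.84 (exact p 0.00586, adjusted 0.0659), which rested on Del52 replicate 1 and Ins5 replicate 1: without them r was 0.42. For CISH and SOCS2, r was 0.79 (exact p 0.0126, adjusted 0.104) and 0.28 without the same arrays.

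Genes with the most similar pattern over the 9 arrays were taken for the 6 members whose lowest array lay above all antigenomic controls, by Pearson's r and with no test. For CISH they were PPP1R35 (r = 0.993) and PIGF (0.985). For SOCS2 they were BBC3, which encodes the apoptosis protein PUMA (0.990), and TIFA (0.984). PIM1 was followed by CLIC4 (0.996) and the folate enzyme gene MTHFD2 (0.995), and PIM2 by BRWD1 (0.998) and the protease gene CTSH (0.997). CCND2 was followed by SECISBP2 (0.990) and WDR41 (0.988). The genes nearest to ID1 were LINC01854 (0.992) and WDR90 (0.966), whose mean levels of 3.37 and 3.98 lay within the control span. BBC3, TIFA, BRWD1 and CTSH were not above all antigenomic controls in every array either. All these genes were picked for the height of r among all non-member genes. PIM1 and PIM2 themselves followed the first principal component, with r = 0.83 and -0.94.

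The rest of the pathway was read from a list of 69 receptors, ligands, kinases, STATs, inhibitors, adaptors and further targets, of which 63 were measured and 21 lay above all antigenomic controls. None passed the adjusted limma threshold in either direction in any comparison. At an unadjusted p under 0.05 there were 3 for Del52 against wild type (7.05% of all genes), 6 for Ins5 against wild type (7.41%) and 5 for Del52 against Ins5 (5.77%), which is near the background. Of the 63, 34 had a lower mean with Del52 than with wild type (45.4% of all genes), 23 had a lower mean with Ins5 than with wild type (40.4%) and 42 had a lower mean with Del52 than with Ins5 (54.6%). Their median differences were -0.01, 0.02 and -0.03.

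The upstream genes showed no called difference. STAT5A, which with STAT5B forms the factor itself, averaged 7.13 ± 0.32 (SD, n = 3) with Del52, 7.23 ± 0.24 with Ins5 and 6.99 ± 0.54 with wild type. STAT5B averaged 8.12 ± 0.18, 8.23 ± 0.18 and 8.11 ± 0.31. JAK2, the kinase bound to many cytokine receptors, averaged 5.11, 4.95 and 5.15, and the erythropoietin receptor gene EPOR 4.30, 4.07 and 3.93. Both lay within the control span.

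By smallest p in the list, SOCS6, another SOCS family member, led Del52 against wild type. It read 4.29, 3.94 and 4.16 with Del52 and 4.65, 5.03 and 4.45 with wild type, a difference of -0.58 ± 0.17 (limma p 0.0093, adjusted 0.603). These groups did not overlap, as for 4.36% of all genes on the lower side, and the level lay within the control span. The Ins5 arrays read 4.13, 4.11 and 4.46 and overlapped both groups. Their SOCS6 difference from wild type was also negative, at -0.48 ± 0.17 (limma p 0.0227, adjusted 0.627). BCR, the fusion partner in BCR-ABL, was 0.13 ± 0.04 higher with Del52 (limma p 0.0102, adjusted 0.603) and 0.13 higher with Ins5 (limma p 0.00859, adjusted 0.573). The brightest BCR probe set averaged 4.39, within the control span. MCL1, a survival protein of the BCL2 family, was 0.11 lower with Del52 than with wild type (limma p 0.0335, adjusted 0.667) and 0.15 lower than with Ins5 (limma p 0.00797, adjusted 0.841). MCL1 read 8.89, 8.94 and 8.94 with Del52, 9.13, 9.02 and 9.08 with Ins5 and 9.01, 9.08 and 9.02 with wild type. Its Del52 arrays lay below all others, as those of CISH did, a pattern whose share over all genes was not computed. KITLG, the ligand of the receptor KIT, and TNFSF11, which encodes the TNF family ligand RANKL, completed the lists for Ins5, at 0.17 and 0.13 above wild type (limma p 0.00662 and 0.0179, adjusted 0.554 and 0.611), both within the control span. The same genes were 0.16 and 0.14 lower with Del52 than with Ins5, with limma p of 0.0109 and 0.0116 and an adjusted p of 0.841 for both. For the mean of both mutants the list was led by BCR, SOCS6 and FOXP3, with limma adjusted p of 0.512, 0.523 and 0.593.

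The other probe sets of the members, 15 over 8 genes, gave no call in any comparison either. Their differences had the same sign as the chosen probe set in 14 of 15 cases for Del52 against wild type, 12 for Ins5 against wild type and 14 for Del52 against Ins5. Over the 9 arrays they followed the chosen probe set closely for PIM1 (lowest r = 0.983), SOCS2 and BCL6 (lowest r = 0.919), and loosely for SOCS1 (0.577), OSM (0.523) and SOCS3 (0.475), the members whose levels lay within the control span. For CCND2, which lay above the controls, the other probe sets had r of 0.971 and 0.547. For ID1, with most of its variance between constructs, r was 0.810 for the second probe set and 0.893 for the third.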

How the data were processed

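Gene expression was measured on 9 Affymetrix arrays. The authors deposited log2 expression values per probe set, made with Partek and RMA per the submitters' processing notes (version numbers: not given in the sources used here). A log base of 2 was taken from the range, which ends at 12.2. Of 49386 probe sets, 93 controls, 1327 with several symbols and 2713 with none were left out. For each of 18239 genes the brightest probe set was used.

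Groups were compared with limma 3.58.1 in R 4.3.3 (lmFit and eBayes, all 9 arrays, Benjamini-Hochberg over all genes, threshold 0.05), tested on simulated data. Correlations and permutation tests used Python 3.11.15 and scipy 1.17.1. No label says that replicates came from separate cultures, so p-values measure the spread between arrays, which may be technical.

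Named were all members, CALR, EPOR, JAK2, STAT5A, STAT5B, the 3 pathway genes with the smallest p in each comparison and the 2 genes most like each member above background. The members and lists were chosen with earlier results of these data known. Alternatives were other scalings, filters, probe sets, array weights, the first component as covariate, a replicate block and leaving out arrays.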

Additional observations from a re-analysis of the deposited data

How the results depend on the processing

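With 3 arrays per group, no member or other gene was called by limma under the deposited values, another scaling, the filter on low genes, an intensity trend, a threshold of 0.1, fits of only the arrays compared, or with any 1 array left out. Array weights changed the counts of genes called to 3190 for Del52 against wild type, 4017 for Ins5 against wild type, 6232 for both mutants against wild type and 5345 in the F test. Members called were then 4 (CISH, SOCS2, PIM1 and ID1), 1 (ID1) and 3 (SOCS2, PIM1 and ID1). That estimate did not converge and gave wild-type replicate 1 a weight of 66.97, and the gene-by-gene estimate, chosen after seeing the data, called 0. With the first component as a covariate, 4, 7 and 68 genes were called in the same comparisons and 2 in the F test, with no member among them. No label says whether same-numbered arrays were paired, and the main fit did not pair them. Of 9 correlations between the deviations of same-numbered arrays, 7 were below 0, among them all with a wild-type array. Del52 and Ins5 correlated at 0.64 for replicate 2 and 0.57 for replicate 3. These correlations share arrays, so they cannot tell whether the arrays were paired. The replicate block called 0 genes. Over settings that keep all arrays or drop both end arrays, the limma adjusted p of ID1 ran from 0.0122 to 1 for Del52 and from 0.00506 to 1 for Ins5 against wild type, lowest under array weights. Leaving out 1 array kept the ID1 differences at 0.14 to 0.17 and 0.19 to 0.22, and the CISH differences of Del52 at -0.28 to -0.18 from wild type and -0.37 to -0.22 from Ins5. The median of the members for Del52 against Ins5 ran from -0.340 to -0.0863.

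Some members changed sign under some settings, and the cause was not tested. Not all of them were close to 0 in the main fit. For Ins5 against wild type, SOCS1 was 0.23 and SOCS3 0.21 there, and both changed sign under other settings. Leaving out 1 array, Del52 against wild type ranged from -0.35 to 0.021 for SOCS1, -0.39 to 0.36 for SOCS3, -0.49 to 0.33 for PIM2 and -0.068 to 0.028 for OSM. Ins5 against wild type ranged from -0.016 to 0.14 for CISH, -0.13 to 0.62 for SOCS3, -0.37 to 0.16 for PIM1, -0.31 to 0.52 for PIM2, -0.037 to 0.050 for OSM, -0.22 to 0.44 for BCL6 and -0.099 to 0.20 for CCND2. Del52 against Ins5 ranged from -0.42 to 0.014 for PIM2 and -0.087 to 0.0096 for OSM. Both mutants against wild type ranged from -0.082 to 0.16 for SOCS1, -0.26 to 0.49 for SOCS3, -0.51 to 0.024 for PIM1, -0.40 to 0.43 for PIM2, -0.051 to 0.036 for OSM, -0.47 to 0.19 for BCL6 and -0.21 to 0.027 for CCND2. Under array weights, the gene-by-gene weights and without both end arrays, in that order, SOCS3 was 0.135, 0.105 and 0.0896 for Del52 against wild type and OSM was -0.0538, -0.0355 and -0.0438 for Ins5 against wild type. For both mutants these settings gave -0.0720, -0.0537 and -0.0582 for OSM and -0.0536, -0.0188 and -0.0555 for PIM2. PIM2 was -0.0035 with the first component as covariate, and OSM was -0.0127 under quantile normalization and -0.0081 under median centring. Without both end arrays CCND2 was -0.0798 for Ins5 against wild type. The dimmest CCND2 probe set gave 0.0945 for Del52 against wild type, 0.0090 for Del52 against Ins5 and 0.0900 for both mutants. The other SOCS1 probe set gave -0.148 for Ins5 and -0.172 for both mutants, and the mean of SOCS1 probe sets -0.0713 for both. BCL6 probe sets gave -0.0402 and -0.0266 for Ins5.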

Other observations

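Signal over background is a limit for some members: SOCS1, SOCS3 and OSM lay within the span of the antigenomic controls in all arrays, and BCL6 exceeded it in 2 of 9. The top of this span came from 1 control probe set, and SOCS1 and BCL6 lay above the other 22 in all arrays. Differences in these genes can be understated on the log2 scale near background. RNA level is not STAT5 phosphorylation, which was not analysed here. The wild-type group spread most in PIM2 (SD 0.83), SOCS3 (0.76), BCL6 (0.67) and PIM1 (0.57).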
